A study of Mus musculus with 10 samples.

Results

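The immunoglobulin kappa locus of the mouse lies on chromosome 6 and encodes the more common of the 2 kinds of antibody light chain. Rows of the deposited count table were taken as kappa genes when their Ensembl identifier carried, in the GRCm38 annotation, a symbol starting with Igkv or Igkj or equal to Igkc. This gave 166 of 55573 genes: 160 variable (V) segments, 5 joining (J) segments and the single constant gene Igkc. Of the V segments, 100 are annotated as V genes and 60 as V pseudogenes. The rule reads gene symbols alone, and the locus was chosen for description with earlier results of these data known. Of the 166 genes, 25 had 0 counts in every library, namely 24 V pseudogenes and the V gene Igkv8-26.

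A kappa light chain gene is assembled in developing B cells when the RAG recombinase joins 1 V segment to 1 J segment, and splicing then attaches the constant exon, so that every kappa messenger RNA holds Igkc. V segments lie on both strands. Those on the strand of the J segments are joined by deletion of the DNA between them, and those on the opposite strand by inversion. A cell and its daughters keep the same V-J join unless it is edited to a more distal V and a more downstream J. V segment counts in a bulk sample describe how the RNA is spread over V segments. They show neither the J partner nor the junction, and so not how many different joins the cells carry. Unjoined segments can also be transcribed, and such germline transcripts are a known feature of the locus before and during recombination.

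The libraries held polyadenylated RNA of bone marrow B-cells from mice with the genotype PAX5-ELN H2B-GFP, where PAX5-ELN is a fusion of a B-lineage transcription factor gene with the elastin gene, known from B-cell leukemia, and H2B-GFP is a fluorescent histone that is diluted by cell division. Each of the 10 libraries is labelled with doxycycline treatment and 35 days. The 5 GFP high libraries are labelled quiescent and the 5 GFP low libraries proliferating, with replicates numbered 1 to 5 in both. The genotype and the doxycycline are therefore shared by both groups, and no library without the fusion was compared. The age of the mice, the promoters that drive the transgenes, and whether libraries came from separate or pooled animals are not given in the sources used here, so the p-values rest on the spread among these libraries, which may be technical.

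Library totals ranged from 10640894 to 14858520 counts. The B-lineage label was met by the early B progenitor markers (Cd79a, Pax5, Ebf1 and others), which summed to 12933 to 15228 CPM (counts scaled to library size) in the GFP high group and 9625 to 11101 CPM in the GFP low group, against 0 to 1.30 CPM for T cell markers. Libraries numbered 1 to 3 stood apart from those numbered 4 and 5 on the second principal component in both groups. The labels name no batch for this, and results are also given within each of these subsets where they differ.

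The 5 J segments span 1366 bases from Igkj1 to Igkj5 on the plus strand, and Igkc begins 2508 bases after Igkj5. They are short enough to print whole, and they are shown because their usage differed between the groups. Capitals mark TTCGG, any 4 bases and GG, letters that encode the phenylalanine-glycine motif of J segments. Both strands were searched, and the motif was found in 4 of 5 segments on the coding strand and in 0 on the other. Igkj3, long regarded as nonfunctional in the mouse, does not hold these letters. Sequences are 5′ to 3′ from the GENCODE M21 transcripts of GRCm38, at chr6:70722562-70722599, chr6:70722916-70722954, chr6:70723223-70723260, chr6:70723548-70723585 and chr6:70723886-70723923 in this order.
Igkj1: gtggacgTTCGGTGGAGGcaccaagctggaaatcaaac
Igkj2: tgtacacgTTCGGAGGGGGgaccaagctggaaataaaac
Igkj3: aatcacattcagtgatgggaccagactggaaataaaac
Igkj4: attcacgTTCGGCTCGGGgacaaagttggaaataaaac
Igkj5: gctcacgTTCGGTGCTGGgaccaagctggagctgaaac

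The V segments span 3149 kb from chr6:67555497 to chr6:70704177, with 75 on the plus and 85 on the minus strand. Most resemble a neighbour closely. Across their transcripts the 100 V genes had a median identity of 91.9% to their nearest relative, and 23 had a relative at 95% or more. The handling of reads that match several places was not given in the sources used here, so counts can be split between such relatives. The last 45 bases of 11 V segments are printed because the usage results turn on them. The first 2 had the lowest p-values among the 10 V rows with the highest mean CPM, and the other 9 were each high in 1 library. Capitals mark the codon of the conserved cysteine that precedes the third complementarity-determining region, which the V end, the J start and the junction between them make up.
Igkv9-124: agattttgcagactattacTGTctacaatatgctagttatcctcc
Igkv19-93: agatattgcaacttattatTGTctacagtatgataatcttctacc
Igkv14-126: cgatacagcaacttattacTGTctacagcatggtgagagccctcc
Igkv12-41: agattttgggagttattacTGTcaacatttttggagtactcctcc
Igkv13-84: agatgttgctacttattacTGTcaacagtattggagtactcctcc
Igkv3-10: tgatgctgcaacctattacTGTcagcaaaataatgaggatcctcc
Igkv4-61: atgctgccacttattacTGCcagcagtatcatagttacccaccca
Igkv8-27: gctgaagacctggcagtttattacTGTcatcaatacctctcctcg
Igkv1-110: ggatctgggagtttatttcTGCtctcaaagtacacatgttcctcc
Igkv4-57: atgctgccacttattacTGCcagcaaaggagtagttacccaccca
Igkv2-109: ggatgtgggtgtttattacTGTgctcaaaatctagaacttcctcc

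The constant gene was lower in GFP high cells. Igkc (chr6:70726435-70726966, plus strand) had 3018, 4152, 5482, 3266 and 2554 counts in GFP high 1 to 5 and 10872, 14990, 11818, 8786 and 9524 counts in GFP low 1 to 5. Every GFP low library lay above every GFP high library. The GFP high mean was 288 ± 79.1 CPM and the GFP low mean 864 ± 225 CPM (SD, n = 5 each). The log2 fold change, always given as GFP high over GFP low, was -1.58 ± 0.21 (SE; edgeR quasi-likelihood test over 12772 genes, Benjamini-Hochberg adjusted p = 0.000173). It was -1.60 within the libraries numbered 1 to 3 and -1.51 within those numbered 4 and 5. In bulk RNA, fewer kappa-expressing cells and less kappa RNA per cell cannot be told apart.

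The V and J segments followed in the same direction. The 160 V rows together held 1677, 2094, 2657, 2066 and 1788 counts in GFP high libraries 1 to 5, against 5095, 6017, 4904, 4642 and 5177 counts in GFP low libraries 1 to 5. This was 161 ± 25.7 against 396 ± 52.6 CPM, with no overlap and a 2.46-fold higher mean in GFP low. The 5 J rows held 45, 92, 129, 64 and 47 counts across GFP high, against 234, 332, 242, 194 and 193 across GFP low, or 5.88 ± 2.52 against 18.4 ± 4.80 CPM, again with no overlap. J segments are 38 or 39 bases long as printed, and a read that crosses from V to J or from J to Igkc touches more than 1 row. The sources used here do not say how such reads were counted.

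**Figure D1:**
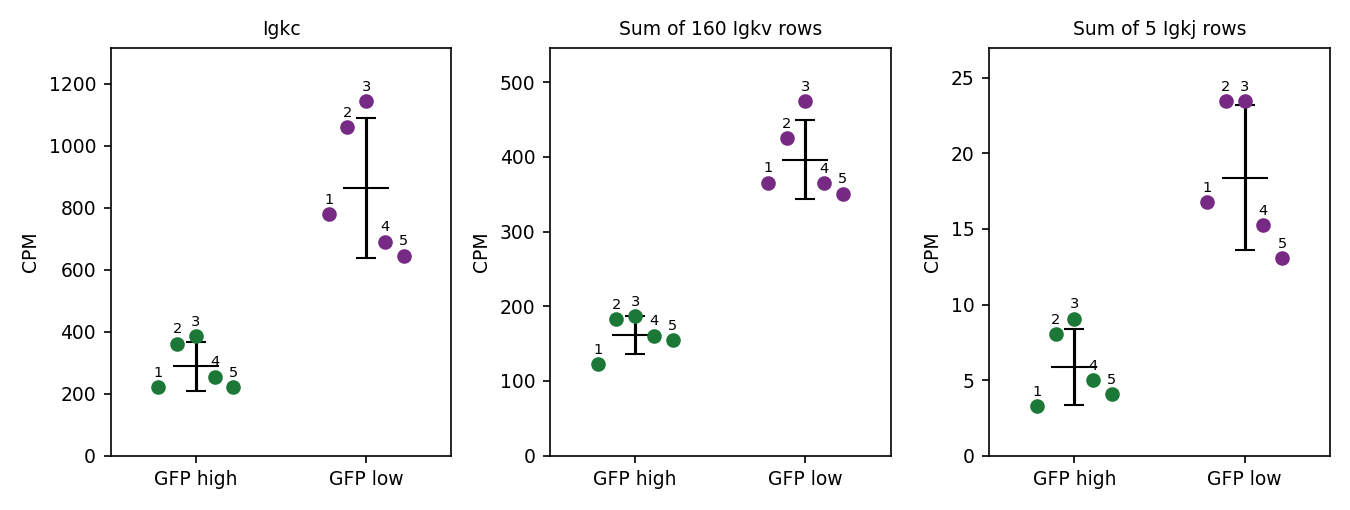
Level of Igkc, of the 160 Igkv rows summed and of the 5 Igkj rows summed in each library, in CPM on linear axes. Points are libraries with their replicate numbers, and lines and bars are mean and SD (n = 5). Igkc lies between 220 and 385 CPM in GFP high and between 645 and 1145 CPM in GFP low, and the groups do not overlap in any panel.

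The ratio of V counts to Igkc counts, not corrected for length, was 0.556, 0.504, 0.485, 0.633 and 0.700 among GFP high libraries and 0.469, 0.401, 0.415, 0.528 and 0.544 among GFP low ones. The ranges overlapped, and within each of the 5 replicate numbers the GFP high library was higher. V pseudogenes, which cannot give a functional chain, made up 4.54 ± 0.57% of V counts in GFP high against 3.21 ± 0.62% in GFP low, also higher in GFP high within 5 of 5 numbers with overlapping ranges. Summed over rows, V pseudogenes were 1.73-fold and V genes 2.49-fold higher in GFP low. These sums have no test, since the rows were grouped with results of these data known.

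Of the 166 genes, 60 passed the filter on low counts and were tested one by one. Against GFP low, 27 were lower in GFP high and 0 were higher at an adjusted p below 0.05, and 33 did not pass. Among all genes tested, 15.4% were lower and 12.0% were higher. At an unadjusted p below 0.05, edgeR called 34 of the 60 lower and 0 higher, and DESeq2 called 28 lower and 0 higher after adjustment. Within the libraries numbered 1 to 3, 21 of 70 tested kappa genes were lower, against 12.5% of all genes. Within those numbered 4 and 5, 12 of 59 were lower, against 11.1%. The filter bears on this count, because 18 of the 60 reached its level of 0.76 CPM in all GFP low but not all GFP high libraries, and 13 of the 27 calls were among these. Of the 29 that reached it in every library, 12 were lower.

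The called genes were Igkc, 3 J segments and 23 of 55 tested V segments. For 17 of the 60, every GFP low library lay above every GFP high library, a pattern that 12.6% of all tested genes showed. In 0 of the 60 did every GFP high library lie above, against 7.92% of all tested genes. The median log2 fold change was -1.11 over the tested kappa genes and 0.03 over all tested genes. It ranged from -4.11 for Igkv4-72 to 0.77 for Igkv9-129 (adjusted p = 0.225), and 10 estimates were above 0. Igkv4-72 had 2, 4, 0, 0 and 0 counts across GFP high, against 18, 42, 22, 20 and 16 across GFP low. It is 1 of 3 tested rows that reached the filter level in all GFP low and no GFP high libraries, so its estimate rests on values near 0.

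The 4 tested J segments had log2 fold changes from -2.93 to -0.73. Differences between these estimates were not tested. Igkj1, Igkj2 and Igkj4 reached the filter level of 0.76 CPM in all GFP low but not all GFP high libraries, so few GFP high counts limit their estimates. Igkj5 reached that level in every library. Igkj1, nearest to the V cluster, had 5, 18, 15, 8 and 6 counts across GFP high, against 76, 120, 94, 86 and 29 across GFP low. All GFP low libraries were above all GFP high libraries, with a log2 fold change of -2.93 ± 0.49 (edgeR adjusted p = 0.000906). Igkj4 had 2, 18, 19, 4 and 6 against 40, 46, 49, 27 and 52 counts, also without overlap in CPM (-2.08 ± 0.54, adjusted p = 0.0126). Igkj4 did not pass within the libraries numbered 1 to 3 (-1.80, adjusted p = 0.0839).

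Igkj2 had 1, 10, 12, 7 and 0 counts across GFP high, against 27, 25, 43, 10 and 42 across GFP low, with overlapping ranges. Its log2 fold change was -2.27 ± 0.71 (edgeR adjusted p = 0.0321). This call was lost, with estimates still negative, without GFP high 1 (adjusted p = 0.0678) or 4 (0.0620), without GFP low 2 (0.0512), 3 (0.0876) or 5 (0.0641), and within the libraries numbered 1 to 3 (0.0719). Igkj3 had at most 6 counts in any library and was not tested.

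Igkj5, nearest to Igkc, had 37, 45, 80, 45 and 35 counts across GFP high, against 86, 135, 52, 71 and 70 across GFP low. In CPM, GFP low 3, 4 and 5 lay within the GFP high range, at 4.74 to 5.58 against 2.70 to 5.61, and GFP low 1 and 2 lay above it. Its log2 fold change of -0.73 ± 0.28 did not pass (edgeR adjusted p = 0.0740). With replicate number as a block it passed (-0.73, adjusted p = 0.0484), and also without GFP high 3 (-0.92, adjusted p = 0.0359).

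As a share of J counts, Igkj5 made up 82.2, 48.9, 62.0, 70.3 and 74.5% among GFP high libraries and 36.8, 40.7, 21.5, 36.6 and 36.3% among GFP low ones. The groups did not overlap, with means of 67.6 ± 12.7% and 34.4 ± 7.41%. The shares rest on few counts. The 95% Wilson intervals were 38.9 to 59.0% for GFP high 2, the lowest of its group, and 35.5 to 46.0% for GFP low 2, the highest of its group, and these 2 intervals overlap. Igkj1 made up 13.5 ± 3.45% among GFP high libraries and 33.4 ± 11.1% among GFP low ones. Here GFP low 5, at 15.03%, lay below GFP high 2, at 19.6%, and the other GFP low libraries were between 32.5 and 44.3%. Intervals cover counting error only, and counts of 2 were 2.33 times as frequent as counts of 1 in the whole table, so they can be too narrow.

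**Figure D2:**
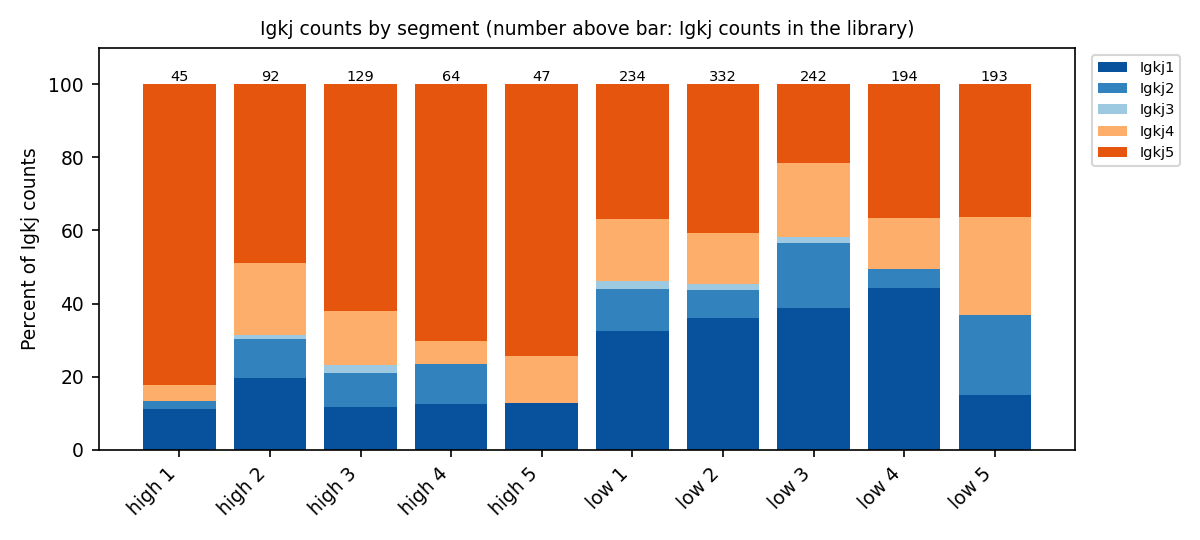
Percent of Igkj counts on each of the 5 J segments in each library, as stacked bars that add to 100%. The number above each bar is the library's Igkj count, and the top segment of the bars, Igkj5, takes 48.9 to 82.2% among GFP high libraries and 21.5 to 40.7% among GFP low ones.

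Among V segments, Igkv9-124 (chr6:67942074-67942540, minus strand, 2780 kb upstream of Igkj1) had the most counts in both groups. It had 130, 162, 219, 301 and 219 counts across GFP high, against 676, 1306, 910, 886 and 829 across GFP low. The groups did not overlap, at 16.3 ± 5.25 and 70.9 ± 19.2 CPM, and the log2 fold change was -2.12 ± 0.24 (edgeR adjusted p = 7.04e-05). Per kb of exon this was 46.1 against 201 CPM. It took 7.74 to 14.6% of V counts in GFP high against 13.3 to 21.7% in GFP low. Its transcript is 95.2% identical to that of Igkv9-120.

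Igkv19-93 (chr6:68736297-68736780, minus strand, 1986 kb upstream of Igkj1), the only member of its family, had 100, 88, 133, 73 and 61 counts across GFP high, against 288, 518, 591, 310 and 273 across GFP low. It was lower in GFP high without overlap (-2.15 ± 0.31, edgeR adjusted p = 0.000329). Its nearest relative, Igkv10-96, is 76.0% identical. It took 3.41 to 5.96% of V counts in GFP high against 5.27 to 12.1% in GFP low, with GFP low 3 the highest.

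Family 4 held 33 rows, the most of any family. Of its 15 tested members, 11 were lower and 4 did not pass, beside 23 lower of 55 tested V segments and 15.4% of all tested genes. Most of the 11, Igkv4-69 among them, reached the filter level of 0.76 CPM in all GFP low but not all GFP high libraries. Igkv4-68 and Igkv4-59 reached it in every library. Higher GFP low counts thus helped most of the 11 into the test, so 11 of 15 does not show that the family differs from other V segments. Igkv4-68 (chr6:69304834-69305405) had 22, 24, 34, 20 and 24 against 115, 116, 86, 60 and 92 counts (-1.87 ± 0.26, edgeR adjusted p = 0.000243). Igkv4-69 had 4, 10, 11, 7 and 6 against 61, 50, 48, 20 and 44 counts (-2.50 ± 0.41, adjusted p = 0.000844), and Igkv4-59 had 32, 29, 30, 21 and 38 against 95, 87, 96, 72 and 78 (-1.48 ± 0.27, adjusted p = 0.00147). In all 3 the groups did not overlap. Igkv4-69 (adjusted p = 0.0602) and Igkv4-59 (adjusted p = 0.0969) did not pass within the libraries numbered 4 and 5 alone. The family took 15 ± 1.95% of V counts in GFP high against 18.7 ± 2.76% in GFP low, with overlapping ranges and the GFP low library higher within 5 of 5 numbers.

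Of the 10 V rows with the highest mean CPM, 4 were lower in GFP high, namely Igkv9-124, Igkv19-93, Igkv8-27 and Igkv4-57, and 6 did not pass. Among the 6, Igkv1-88 had 51, 104, 84, 91 and 79 against 35, 139, 66, 152 and 125 counts (-0.27 ± 0.36, edgeR adjusted p = 0.629), and Igkv14-111 had 83, 165, 123, 152 and 129 against 385, 210, 119, 150 and 157 (-0.56 ± 0.30, adjusted p = 0.185). In both the ranges overlapped, and for Igkv14-111 only GFP low 1 and 2 were above all GFP high libraries in counts. Igkv1-135 (-0.97 ± 0.40, adjusted p = 0.0947) and Igkv5-48 (-1.12 ± 0.43, adjusted p = 0.0701) passed only with replicate number as a block among the fits to all 10 libraries by edgeR, at adjusted p = 0.0129 and 0.0414. DESeq2 also called Igkv5-48 (adjusted p = 0.0296). Without GFP low 5, Igkv5-48 was at -0.46 (adjusted p = 0.248), and without GFP low 2, Igkv1-135 was at -0.52 (adjusted p = 0.315).

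Of the 20 families, 6 and 15 held smaller shares in every GFP low library than in any GFP high library, and 0 families showed the opposite. Family 6 took 2.40 to 4.59% of V counts in GFP high against 1.38 to 1.63% in GFP low, without overlap, or 3.41 ± 0.88% and 1.51 ± 0.11%. Its summed level was 5.64 CPM among GFP high libraries and 5.99 CPM among GFP low ones, while V segments as a whole were 2.46-fold higher in GFP low. The 2 members tested, Igkv6-15 (0.40, adjusted p = 0.433) and Igkv6-20 (0.26, adjusted p = 0.727), did not pass. Family 15 took 0.941 to 3.44% across GFP high, against 0.599 to 0.877% across GFP low, nearly all from Igkv15-103 (0.25, adjusted p = 0.643). Family 2 overlapped, with 5.87 to 7.78% in GFP high against 1.71 to 2.59% in GFP low 1 to 4. GFP low 5 stood at 7.55%, of which Igkv2-109 alone gave 6.74% of V counts.

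Across single segments, log2 fold change had little relation to distance from Igkj1. The correlation across segments between log2 fold change and distance from Igkj1 was 0.08 (Spearman, 55 tested segments), and that between level and distance was 0.04 (160 segments). Segments share libraries and reads and are not independent, so no p is given. Cut into 4 groups of 40 rows from the distal to the proximal end, the locus gave 46.8, 21.3, 17.5 and 14.4% of V counts in GFP high against 43.8, 18.9, 22.4 and 14.9% in GFP low. The ranges overlapped in each of these blocks, and in the third the GFP low library was higher within 5 of 5 replicate numbers. Of the tested segments, 4 of 18, 6 of 11, 9 of 15 and 4 of 11 were lower, in the same order. Over all tested V segments it was 23 of 55, and over all tested genes 15.4%.

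The distal 80 segments, which lie beyond 1486 kb from Igkj1, held 68.0 ± 3.69% of V counts in GFP high against 62.7 ± 5.93% in GFP low, with overlap. The difference of 5.34 points became -1.10 within the libraries numbered 1 to 3 and 15 within those numbered 4 and 5. It became -0.51 when the 9 segments high in 1 library were left out. It became 12.7 without Igkv9-124 and Igkv19-93.

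Plus-strand segments, those joined by deletion, held 39.7 to 45.9% of V counts in GFP high against 23.2 to 39.7% in GFP low. The means were 42.8 ± 2.52% and 32.6 ± 6.13%, and the lowest GFP high and highest GFP low libraries nearly touched. The difference of 10.3 points was 6.42 within the libraries numbered 1 to 3 and 16.1 within those numbered 4 and 5. Igkv9-124 and Igkv19-93 are both on the minus strand. Without them the shares were 50.2 ± 3.34% and 43.7 ± 8.31%, and the groups overlapped.

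**Figure D3:**
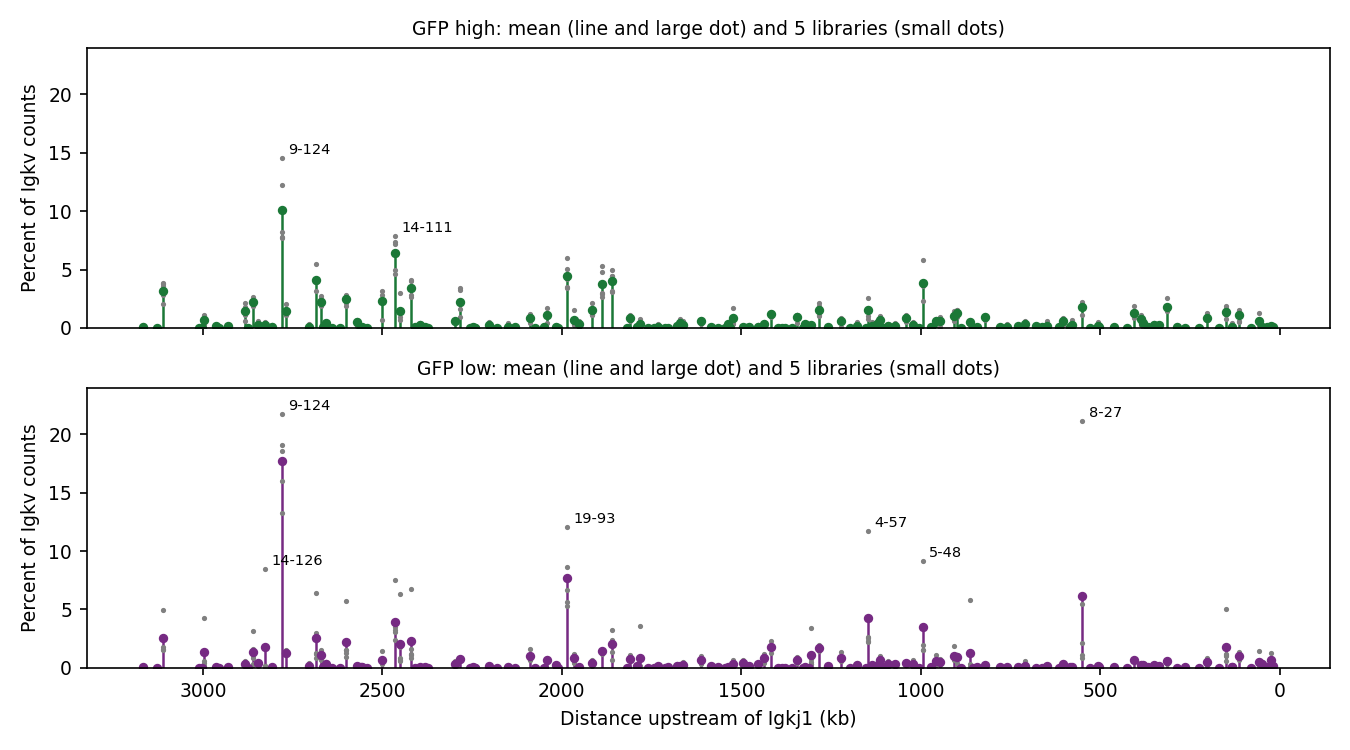
Percent of a library's Igkv counts on each of the 160 V rows, against distance upstream of Igkj1 in kb, with the distal end at the left. Lines and large dots are means of 5 libraries and small dots are single libraries, and names mark segments above 8% in a library or with a mean above 6%. Igkv9-124 leads both panels, and in GFP low several segments have 1 small dot far above the rest, the highest being Igkv8-27 at 21.1%.

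Single libraries with 1 segment far above the rest were seen in GFP low. A segment was listed when it had at least 50 counts in 1 library and at least 3 times the CPM of the next of the 10 libraries, a rule set after the values were seen. It listed 9 segments, and the values are therefore a description without a test. Just outside the rule were Igkv1-117 at 2.93, Igkv17-127 at 2.58 and Igkv1-133 at 2.57 times. V segments were higher in GFP low as a whole, which makes both the count minimum and the ratio to the next of all libraries easier to reach there. The ratio was therefore also taken within each group, on the share of V counts. With a minimum of 50 counts this gave 0 segments in GFP high and 10 in GFP low, the 9 and Igkv1-117. With a minimum of 10 counts it gave 2 in GFP high (Igkv6-32 and Igkv3-9) and 14 in GFP low. Taken on the share of V counts over all 10 libraries, with a minimum of 50 counts, the ratio listed only 6 of the 9. These were Igkv14-126, Igkv13-84, Igkv4-61, Igkv4-57, Igkv12-41 and Igkv8-27, each highest in a GFP low library. The lower GFP high counts still limit what could be listed in GFP high.

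In GFP low 5, Igkv14-126 (chr6:67896172-67896642) had 438 counts, against 0 to 14 in the other 9 libraries, a CPM 30.2 times the next. In the same library Igkv4-57 (chr6:69575975-69576500) had 605 counts, against 14 to 53 in GFP high, and 108 to 136 in the other GFP low libraries, and Igkv2-109 (chr6:68302427-68303158) had 349, against 44 to 85 elsewhere. These 3 segments lie far apart, at 2826, 1146 and 2419 kb from Igkj1. Together they held 26.9% of V counts in GFP low 5.

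In GFP low 4, Igkv8-27 (chr6:70171809-70172270, minus strand) had 980 counts, against 18 to 54 among GFP high libraries and 282 in GFP low 5, the next highest. It made up 21.1% of the V counts of GFP low 4 (95% Wilson interval 19.96 to 22.31%) and was the top segment there in place of Igkv9-124. Igkv8-27 passed the test between the groups (-2.91 ± 0.77, edgeR adjusted p = 0.0142), at -1.61 without GFP low 4 (adjusted p = 0.0364) and at -2.13 with the replicate block (adjusted p = 0.00234). It did not pass within the libraries numbered 1 to 3 (-1.02, adjusted p = 0.196). Igkv4-57 was at -2.72 ± 0.51 (adjusted p = 0.00196), at -1.997 without GFP low 5 (adjusted p = 0.00222) and at -1.70 within the libraries numbered 1 to 3 (adjusted p = 0.00716).

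GFP low 3 stood out in Igkv1-110 with 312 counts, Igkv3-10 with 247 and Igkv4-61 with 167, which held 14.8% of its V counts together. GFP low 1 stood out in Igkv12-41 with 298 counts, against at most 18 elsewhere, and Igkv13-84 with 182, against at most 16 elsewhere. These 2 held 9.42% of its V counts. Under the rule over all 10 libraries, GFP low 2 and the 5 GFP high libraries had none. Of the 9 segments, 5 are on the plus and 4 on the minus strand, and they lie between 149 and 2826 kb from Igkj1. Identity to the nearest relative ranged from 87.8% for Igkv8-27 (to Igkv8-28) to 96.8% for Igkv1-110 (to Igkv1-117), the latter being the segment just outside the rule.

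**Figure D4:**
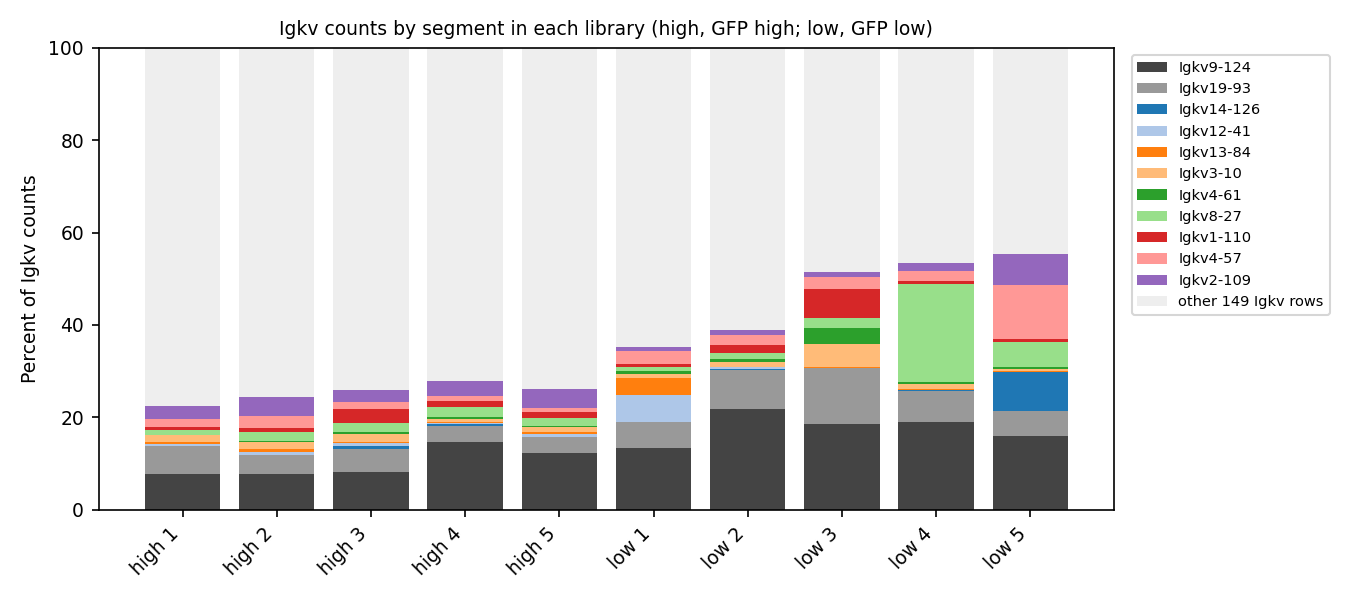
Percent of each library's Igkv counts on Igkv9-124, Igkv19-93 and the 9 segments that stood out in 1 library, as stacked bars with the other 149 V rows on top. The 9 segments together hold 8.65 to 12.8% among GFP high libraries and 8.59 to 34.0% among GFP low ones. Each of the 9 is widest in 1 GFP low library, and Igkv8-27, widest in GFP low 4, also takes 5.45% in GFP low 5.

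Usage was more even in GFP high. The effective number of V segments, the exponential of the Shannon entropy of the V counts, equals the number of segments that would give the same diversity if all were used equally. It was 49.2, 50.2, 53.1, 43.8 and 45.7 among GFP high libraries and 42.3, 37.0, 34.0, 28.3 and 27.8 among GFP low ones. All GFP high libraries were above all GFP low libraries, with means of 48.4 ± 3.70 and 33.9 ± 6.09. Within the libraries numbered 1 to 3 the means were 50.9 and 37.8, and within those numbered 4 and 5 they were 44.8 and 28.1.

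Depth differed, since GFP low libraries held more V counts. Brought to 1677 V counts each, the means were 48.1 ± 3.55 and 33.1 ± 5.94, still without overlap. At that depth 93.6 to 101.2 segments were detected in GFP high against 90.1 to 103 in GFP low, with overlap. The inverse Simpson index, which weighs abundant segments more, was 30.5 ± 5.29 and 15.7 ± 4.49, without overlap. The top 5 segments held 30.3 ± 3.46% of V counts in GFP high against 46.8 ± 6.15% in GFP low.

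The difference in evenness depended on which segments were counted. Without the 9 segments that stood out in 1 library, the effective numbers were 42.4 ± 3.34 and 30.9 ± 3.80, without overlap. Without Igkv9-124 and Igkv19-93 they were 52.1 ± 2.30 and 43.9 ± 11.1, and GFP low ranged from 30.5 to 56.9 across the GFP high values. With all 11 left out they were 46.0 ± 2.01 and 48.2 ± 7.26, with overlap and the direction turned. The segments left out were chosen on these counts, so these values describe where the difference lies and test nothing.

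**Figure D5:**
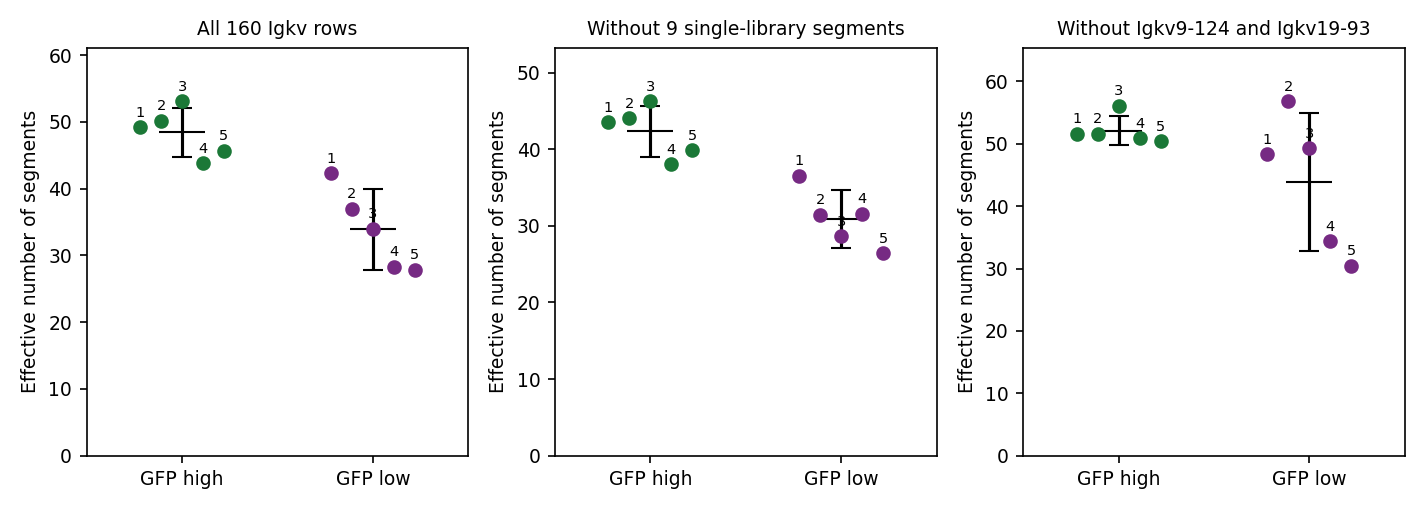
Effective number of V segments in each library with all 160 V rows, without the 9 segments that stood out in 1 library, and without Igkv9-124 and Igkv19-93. Points are libraries with their replicate numbers, and lines and bars are mean and SD (n = 5). The groups are apart in the first 2 panels and overlap in the third, where GFP low 4 and 5 stay at 34.3 and 30.5.

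GFP high libraries also resembled each other more. The overlap of usage between 2 libraries, taken as the sum over segments of the smaller share, was 74.7 to 82.6% (median 79.7) for the 10 pairs within GFP high and 59.5 to 75.7% (median 64.8) for the 10 pairs within GFP low. Between the groups it was 58.7 to 65.8% for the 5 pairs with the same number and 56.7 to 68.3% for the 20 others. Without the 9 segments, pairs within GFP low rose to 69.1 to 81.5% (median 76.9), while pairs between the groups had medians of 65.7% (same number) and 66.7% (other numbers). Each library enters several pairs, so these ranges have no test.

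Genes of other antibody chains moved beside kappa in part. Jchain, which links secreted IgM and IgA, had 16, 10, 2, 8 and 4 counts across GFP high, against 852, 478, 786, 394 and 1204 across GFP low (-6.48 ± 0.44, edgeR adjusted p = 6.18e-06). Igha, the IgA constant gene, had 4 to 19 counts in GFP high, and in GFP low 834 and 1197 in libraries 3 and 5 and 0 to 4 in the others. Iglc1 and Iglv1 of the lambda locus, the other light chain locus, were high in GFP low 1 (638 and 434 counts) and 3 (742 and 791). In GFP low 2, 4 and 5 they had 23 to 57 and 39 to 59 counts, below all GFP high libraries (62 to 172 and 70 to 212). Neither passed (edgeR adjusted p = 0.210 and 0.254), nor did Iglv3, whose estimate was higher in GFP high (1.34, adjusted p = 0.0650). Iglc2 and Iglv2 were high in GFP low 2 (747 and 428 counts). Iglc2 passed (-2.43 ± 0.77, adjusted p = 0.0345), but not without GFP low 2 (-0.71, adjusted p = 0.149), nor without any of GFP high 1, 2, 3 or 5 (0.0585 to 0.0770). Within the libraries numbered 4 and 5 it was at -0.33 (adjusted p = 0.702).

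The counts of markers called stand beside 12.0% higher and 15.4% lower among all tested genes, and the lists are short. Of the 14 plasma cell markers, 13 were tested. Derl3, Xbp1 and Sdc1 were higher and Jchain, Fkbp11 and Txndc5 lower in GFP high. The summed level of the list was 979 to 1046 CPM among GFP high libraries and 927 to 1081 CPM among GFP low ones. Slamf7 (345 against 337 CPM) and Xbp1 (239 against 180 CPM) made up much of this sum. Jchain, at 0.63 against 56.7 CPM, made up little, so the sum shows little of its difference. Tnfrsf17, the plasma cell receptor BCMA, had 0 counts across GFP high, against 0 to 4 across GFP low, and Ighg1 and Ighe had 0 everywhere. Of 12 tested mature B cell markers, 3 were higher and 1, H2-Ab1, was lower. Of 10 early B progenitor markers, 5 were higher and 0 lower in GFP high, with a median log2 fold change of 0.43. Myeloid markers summed to 104.7 to 148 CPM in GFP high against 70.0 to 110.2 CPM in GFP low, with 1 of 6 tested higher, and erythroid markers to 15.3 to 40.6 and 7.46 to 19.2 CPM, with 1 of 3 higher (Hbb-bs, a call lost in 9 other settings). The part of such cells in the kappa differences was not tested.

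Of the genes that recombine or regulate the kappa locus, all 33 listed were tested. Of these, 6 were higher in GFP high, 6 were lower and 21 did not pass, beside 12.0% higher and 15.4% lower of all tested genes, with a median log2 fold change of 0.09 against 0.03 for all tested genes. Rag1, a subunit of the recombinase, was higher at 263 ± 33.5 against 143 ± 42.5 CPM (0.88 ± 0.19, edgeR adjusted p = 0.00400). Its partner Rag2 was at 0.66 ± 0.24 (adjusted p = 0.0585). Rag2 passed in 9 other settings, among them the replicate block (edgeR adjusted p = 4.41e-06), and not in 7. The other higher genes were Foxo1, an activator of the Rag genes, Spi1, Mef2d, Rela and the end-joining factor Xrcc6.

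The lower genes included Hmgb1 (-0.84 ± 0.07, edgeR adjusted p = 1.13e-05) and Hmgb2 (-1.15 ± 0.08, adjusted p = 6.66e-06), DNA-bending cofactors of RAG that are also general chromatin proteins. Ctcf and the cohesin subunit Rad21, which shape loops of the locus, and Spib and Ikzf3 were lower too. Irf4, which drives light chain opening, was at 0.50 ± 0.29 (adjusted p = 0.227). Irf4 passed in 3 other settings, among them the replicate block (edgeR adjusted p = 6.11e-05), and not in 13. Kappa counts were lower in the group in which Rag1 was higher. Igll1, a part of the surrogate light chain that precedes kappa on the cell, was higher in GFP high (0.46 ± 0.06, adjusted p = 0.000177), as was Ighm, the IgM heavy chain gene (0.20 ± 0.05, adjusted p = 0.00768).

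The genes whose log2 CPM followed Igkc most closely over the 10 libraries, among 9810 outside the immunoglobulin loci with a mean of at least 5 CPM, were Dtl (Pearson r = 0.987), E2f7 (0.986), Gmnn (0.984), Txnl1 (0.980) and C1d (0.977). Dtl, E2f7 and Gmnn act in the cell division cycle. All 10 libraries enter these values, so they share the difference between the groups, and no p is given.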

How the data were processed

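RNA was measured in 10 libraries, 5 GFP high and 5 GFP low, grouped and numbered by their titles. The values are whole-number read counts per Ensembl gene that the authors deposited without normalization. Per the labels, the RNA kit was a Qiagen micro kit and libraries were made with SMART-Seq v4. The submitters' processing notes name mm10, STAR, featureCounts and DESeq2. Versions, strand use and the treatment of reads with several matches are not given in the sources used here.

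Symbols, positions and sequences came from GENCODE M21 (GRCm38, the build mm10), and 55394 identifiers matched. The test was edgeR 4.0.16 under R 4.3.3 (filterByExpr, TMM, glmQLFit and glmQLFTest, no covariates), with Benjamini-Hochberg adjustment over 12772 genes and a threshold of 0.05. CPM used TMM-scaled library sizes. Shares, sums and diversity have mean, SD (n = 5) and range only. The fit was checked on simulated counts. Alternatives were DESeq2 1.42.0, RLE scaling, no filter, a replicate block, each library left out, other diversity indices and other segment sets.

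Deviations of same-numbered libraries correlated at 0.352, 0.248, 0.295, 0.349 and 0.353 for numbers 1 to 5. For the same GFP high libraries, the highest correlation with a GFP low library of another number was 0.053, 0.143, 0.180, 0.292 and 0.321. The numbers therefore appear to pair the samples, less clearly for 4 and 5. This pairing comes from the data, since the labels do not say what a number marks. The members and lists were chosen with earlier results of these data known. Of the marker lists, 1 gene is not reported here and was left out of its lists. Named genes were Igkc, all J rows, the 10 V rows with the largest mean CPM, up to 5 V rows per direction with the lowest p, V rows above 20% of a library's V counts, 2 genes per list with Jchain, Rag1, Rag2, Irf4 and Ighm, and the 5 genes most like Igkc. Other named genes were chosen after their values were seen. A further 16 V rows of the locus carry Gm symbols and were left out, the largest being Gm42543 with 1403 counts over all libraries (log2 fold change 0.03, adjusted p = 0.952). Gm42543 had 116, 135, 123, 142 and 173 counts across GFP high, against 67, 219, 68, 209 and 151 across GFP low. The V sums, shares, ranks and effective numbers above are without these rows and would change with them. An exon of Igkv2-137 overlaps another gene, so its counts are uncertain.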

Additional observations from a re-analysis of the deposited data

Results flagged for a closer look

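In groups of 5, a library was taken to stand apart when its gap to the nearest library as a share of the group's range exceeded Dixon's 95% critical value. Of 104 groups checked, 8 met this, and chance gives about 1 in 20. Of the 8, 5 were V segments in GFP low. Igkv8-27 was at 77.04 CPM in GFP low 4 (next 19.09), Igkv4-57 at 40.96 CPM in GFP low 5 (next 12.01), Igkv2-109 at 23.63 CPM in GFP low 5 (next 5.896), Igkv5-48 at 32.02 CPM in GFP low 5 (next 12.62) and Igkv14-111 at 27.61 CPM in GFP low 1 (next 14.84). Iglc2, a lambda constant gene, was at 52.8 CPM in GFP low 2 (next 5.617). The Igkj1 share of J counts was highest in GFP high 2 at 19.57% (next 12.77%), and the Igkj5 share was lowest in GFP low 3 at 21.49% (next 36.27%).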

How the results depend on the processing

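Kappa genes lower in GFP high numbered 27, and 24 with RLE scaling, 26 with no filter, 30 with the replicate block, 28 with DESeq2, 19 to 30 when each library was left out, 21 with only replicates 1 to 3 and 12 with only replicates 4 to 5. The count of higher kappa genes was 0 in each of these. Igkc ranged from -1.71 to -1.45 with each library left out and passed in every setting run. The replicate block changed the calls of Igkj5, Igkv5-48, Igkv1-135, Rag2, Irf4, S100a9 (adjusted p = 0.0375) and Hbb-bt (0.0428), and of no other named gene.

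Differences below are GFP high minus GFP low. Without the 9 single-library segments, the V level difference moved from -235 to -170 CPM. The effective number difference of 14.5 moved to 8.25 without Igkv9-124 and Igkv19-93 and turned to -2.19 without those and the 9 together. The distal share difference of 5.34 points turned to -0.51 without the 9 segments and to -1.10 with replicates 1 to 3, and moved to 12.7 without Igkv9-124 and Igkv19-93 and to 15 with replicates 4 to 5. The plus-strand share difference of 10.3 points moved to 16.1 with replicates 4 to 5 and was 6.42 with replicates 1 to 3. These subsets were chosen after seeing the data, and the cause was not tested. With each library left out, the ranges were -246 to -215 CPM, 13.0 to 16.6 effective segments, 3.39 to 7.11 points (distal), 7.94 to 12.1 points (plus strand), -24.4 to -17.1 points (Igkj1 share) and 29.6 to 37.9 points (Igkj5 share).

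Single genes that did not pass changed sign. These were Igkv17-121 (-0.89 to 0.12 with each library left out, the highest without GFP low 2, and 0.60 with replicates 4 to 5), Igkv2-109 (-0.87 to 0.18, the highest without GFP low 5, and 0.25 with replicates 1 to 3), Igkv1-88 (0.020 with replicates 1 to 3) and Igkv14-111 (0.022 with replicates 4 to 5). Ighm did not pass with no filter (adjusted p = 0.113). J shares are limited by 45 to 332 J counts per library.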
